A study of Rattus norvegicus with 12 samples.

Results

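This series held 6463 m6A regions under 1000 bases that were found in every retina. Of these, 283 had a lower coverage rank in all 3 diabetic rats than in any of 3 control rats, and 879 a higher one. N6-methyladenosine (m6A) is placed on mRNA by a methyltransferase complex built around METTL3 and METTL14, can be removed by demethylases, and is read by proteins such as the YTH family, which act on splicing, export, translation and decay. It often lies near stop codons and in long exons, and a transcript can carry several methylated stretches. In an m6A immunoprecipitation (IP), the coverage of a region grows with the amount of its RNA as well as with the share that is methylated. In whole retina, fewer cells of a type and less RNA per cell cannot be told apart.

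The members were chosen by the pileup, the coverage at the summit of a peak, in the 6 deposited IP peak lists. In each list a region took its highest pileup and was given a percentile, 100 for the region with the most coverage. Regions of different lists were merged where they shared 1 base or more, and a merged region kept its highest percentile in each list. Of 12467 merged regions, 7098 were found in all 6 lists, and 6463 of these were shorter than 1000 bases. In 283 of the 6463 (4.38%) the highest diabetic percentile lay below the lowest control percentile. In the other direction, 879 regions (13.6%) ranked higher in all diabetic lists, and in 5301 the groups overlapped. These percentages carry no test, because the rule uses the values it counts.

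All animals were male Sprague-Dawley rats. The controls, labelled WT, were given citrate buffer into the peritoneum on 5 days, and the diabetic animals were given streptozotocin (STZ, a beta cell toxin) on as many days, in doses of 60 mg/kg that followed 12 h of fasting. Diabetes meant a fasting glucose over 16.7 mmol/L, tested 1 week after the last dose; the age of the rats and the time between that test and the collection of the retina are not given in the sources used here. The 12 h fast is stated for the diabetic animals only, so STZ, that fast and high glucose cannot be told apart in this design. The listed weights were 103.4, 110.5 and 106 g in control replicates 1, 2 and 3 and 100.4, 102.5 and 104 g in the diabetic replicates. Each group had 3 animals, each with an IP and an input library of the retina. The smaller library of an animal held 8661200, 8175227 and 9030946 reads in control replicates 1, 2 and 3. In the diabetic replicates it held 8729247, 10186285 and 12354616 reads. This smaller library was the IP itself for control replicates 1 and 3. For control replicate 2 and every diabetic replicate it was the input, and the larger IP was scaled down to it. Before scaling, the IP of control replicate 2 had 16114422 reads. Diabetic replicate 1 had an IP of 12934276 reads, replicate 2 of 16017442 and replicate 3 of 12675809. The lowest pileup of a list was 35, 33.5 and 37 in controls and 35.1, 38.2 and 45.8 in diabetic rats. The part of depth in the ranks was not tested. The lists had 9082, 9103 and 10160 regions in control replicates 1, 2 and 3, and 9731, 10552 and 9998 in the diabetic replicates. The files pair no gene names with positions and name no genome build, so regions are given by chromosome, start and end as deposited, counted from 1, and their genes, transcript parts, sequences and the markers of retinal cells were not analysed here.

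Lists of different length place the same coverage at different percentiles, and this bears on the number of members. The median percentile of all 6463 eligible regions was 55.5, 55.8 and 61.3 in controls (replicates 1, 2 and 3, the order kept below) and 59.0, 62.3 and 59.6 in diabetic rats. A typical shared region thus stood a little higher in the diabetic lists, by a median of 1.97 percentile points between group means, and a member had to go against that shift. When regions were ranked among the 7098 shared regions only, 642 ranked lower and 659 higher in the diabetic lists, and with lists cut to an equal length of 9082 regions the numbers were 578 and 609. The unequal count of 283 against 879 therefore went with the ranking over whole lists. Of the 283 members, 267 met the rule when ranked among shared regions and 262 with equal lengths.

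**Figure D1:**
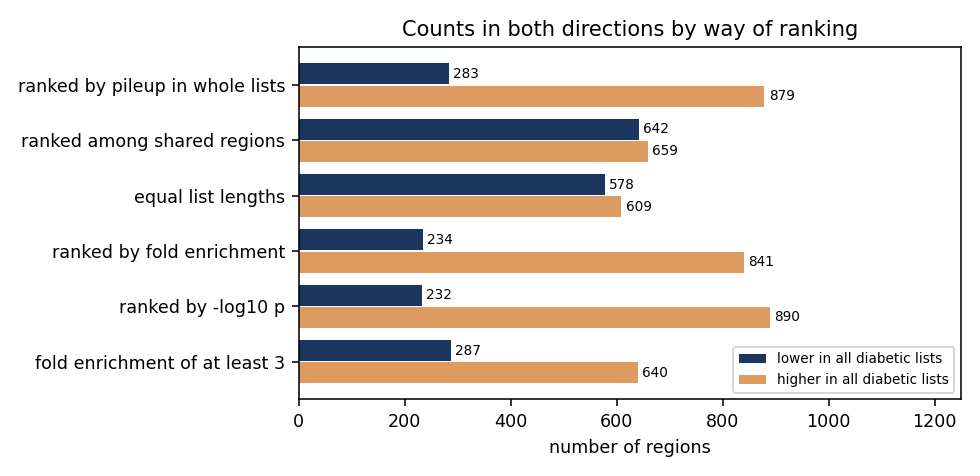
Numbers of shared regions under 1000 bases that ranked lower (dark bars) or higher (light bars) in all 3 diabetic lists than in any control list, by way of ranking (vertical axis); the horizontal axis counts regions. Ranking over whole lists gave 283 and 879, while ranking among shared regions gave 642 and 659 and equal list lengths gave 578 and 609.

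The count was also set beside other choices of 3 lists, as laid down with the rule. With any 3 libraries put in the place of the controls, the 18 choices that mix both groups gave 35 to 787 regions, with a median of 188. Of these, 7 gave more than 283 and 11 gave fewer. The number of members is thus within the range that mixed groups of these libraries gave, and the members are described below as ranked lower in these 6 lists, which is not a claim about diabetes in general.

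Members stood high in the control lists. The rule uses these percentiles and asks for control values above the diabetic ones, and a region low in the controls has little room below it. The levels and shares here are thus a description, and nothing is read from them. Their median percentile was 75.8, 75.7 and 77.5 for controls and 64.3, 66.6 and 64.8 for diabetic rats, and the median difference between group means was -7.75 percentile points. By the mean control percentile, members made up 1.10% of eligible regions below 25 (9 of 818), 2.26% from 25 to 50 (42 of 1857), 4.20% from 50 to 75 (86 of 2046) and 8.38% from 75 up (146 of 1742). At the top of the lists the differences were small in percentile terms. The 146 members from 75 up had a median difference of -3.32 points and a median gap, the lowest control percentile minus the highest diabetic one, of 0.668 points. The 42 members between 25 and 50 had -14.1 and 3.11 points. All 6 lists placed 57 members (20.1%) at the 90th percentile or above, beside 7.41% of eligible regions.

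**Figure D2:**
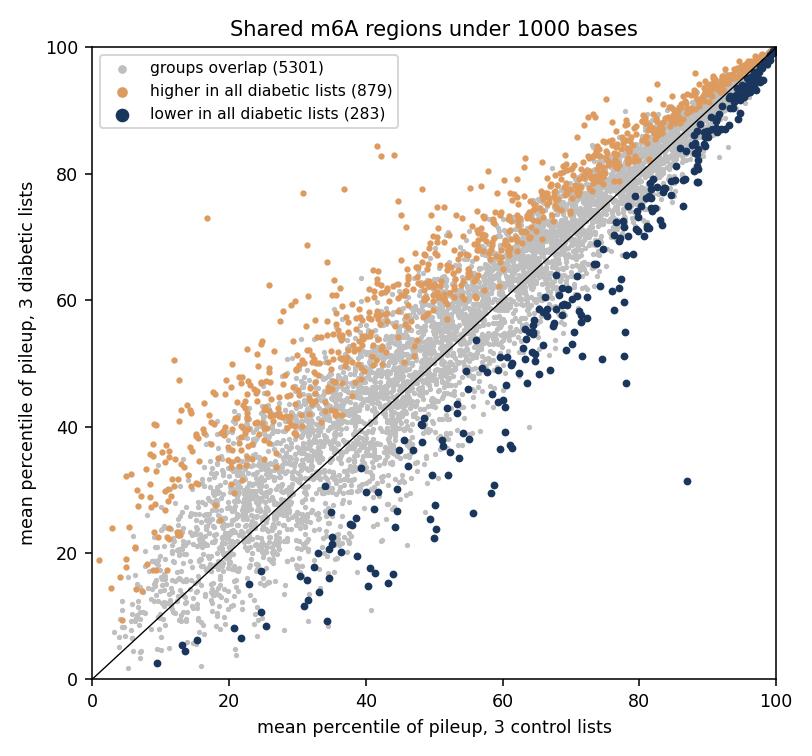
Each point is 1 of 6463 shared regions under 1000 bases, with its mean percentile of pileup over the 3 control lists on the horizontal axis and over the 3 diabetic lists on the vertical axis; the line marks equal means. The 283 members (dark) lie below the line along its whole length, 146 of them at a mean control percentile of 75 or more, and 1 on chromosome 10 stands far from the others.

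Most gaps were narrow. The median gap was 1.55 percentile points (quartiles 0.483 and 4.28), whereas the 3 control percentiles of a member spread over a median of 4.97 points and the 3 diabetic percentiles over 4.93. A gap of at least 5 points was reached by 56 members (19.8%), and of at least 10 points by 16; among the 879 regions ranked higher, 227 (25.8%) and 86 did so. The lowest value of a member came from diabetic replicate 1 in 118, from replicate 3 in 116 and from replicate 2 in 49. The highest came from control replicate 3 in 128, from replicate 1 in 106 and from replicate 2 in 49. Just inside the rule were a region on chromosome 18 from 57038952 to 57039690, with a gap of 0.00446 points, and one on chromosome 7 from 18519783 to 18520459, with 0.0052 points. Just outside it were regions on chromosome 8 from 26310868 to 26311348 and on chromosome 9 from 16085930 to 16086544, whose gaps were -0.00097 and -0.0031 points, an overlap. The longest member had 995 bases, and the shortest region past the length limit that otherwise met the rule had 1003.

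The widest gap belonged to a region of 694 bases on chromosome 10 from 40255789 to 40256482. Its percentiles were 86.0, 88.0 and 87.0 for controls and 65.2, 23.5 and 5.28 for diabetic rats. The controls agreed within 2 points while the diabetic animals ranged from just above the middle of the list almost to its bottom, so the gap of 20.9 points is set by diabetic replicate 1 alone. The deposited fold enrichments, the authors' ratio of pileup to background, were 11.2, 6.49 and 8.49 for controls and 7.72, 3.39 and 2.43 for diabetic rats. The peak covered 676, 653 and 670 bases in the control lists and 634, 313 and 244 bases in the diabetic lists. The local background, computed back from pileup and fold, is given in multiples of the lowest background of its list. It was 1.21, 2.38 and 1.95 in controls and 1.00, the lowest level, in each diabetic list. The summit with the most coverage lay at 40256114 in diabetic replicate 2 and from 40256237 to 40256263 in the other lists. The values of that replicate thus come from another place in the region. The part of the input in the lower rank was not tested, and by fold percentile the groups overlapped (85.4, 65.6 and 72.4 in controls, 71.0, 27.3 and 7.88 in diabetic rats).

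A pair of members with wide gaps lay 9824 bases apart on chromosome 7. The first, from 141355593 to 141356352, had percentiles of 76.0, 77.3 and 81.0 in controls and 57.6, 48.0 and 35.1 in diabetic rats. Its background was at the lowest level in every list, and its fold enrichments were 9.52, 9.85 and 12.5 against 6.47, 5.13 and 4.01. The second, from 141366177 to 141366643, had percentiles of 80.7, 75.7 and 77.3 in controls and 60.4, 56.4 and 48.0 in diabetic rats. Both neighbours thus had groups that stood well apart, with every diabetic value at least 15.3 points below every control value. Their backgrounds stood at different levels. At the lowest level, where the first stood in every list, a group difference in input cannot be seen. The background of the second was 3.10, 3.37 and 3.46 in controls and 2.02, 1.67 and 1.81 in diabetic rats, and its fold enrichments overlapped, at 3.68, 2.93 and 3.32 against 3.49, 3.69 and 2.82.

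Further members with wide gaps kept their summits within 50 bases over the 6 lists while their coverage ranked lower in the diabetic ones. On chromosome 10 from 109633195 to 109633479 the percentiles were 50.3, 63.2 and 53.3 for controls and 31.97, 27.0 and 19.7 for diabetic rats, with the background at its lowest level throughout. On chromosome 10 from 65607887 to 65608061, a narrow peak of 175 bases, they were 74.3, 79.9 and 78.9 against 58.4, 52.5 and 42.6. On chromosome 20 from 10863806 to 10864230 they were 68.6, 47.8 and 58.5 against 32.6, 31.4 and 24.4. Its controls spread over more than 20 points, and its neighbour 3240 bases away was also a member. On chromosome 4 from 118208216 to 118208695 controls stood at 52.2, 40.0 and 37.3 and diabetic animals at 23.5, 5.18 and 17.2. On chromosome 9 from 54258225 to 54258415 the diabetic values lay close together, at 50.5, 52.2 and 53.5, below controls at 65.9, 66.7 and 75.2. On chromosome 19 from 25789293 to 25789868 it was the controls that lay close together, at 44.6, 43.2 and 44.9, above diabetic values of 21.6, 31.9 and 18.9. The remaining regions among the 15 widest gaps, apart from those on chromosome 5 described next, were chr1:214280503-214280918 (gap 11.7 points), chr3:9798629-9798870 (11.2) and chr4:89145863-89146396 (10.5).

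**Figure D3:**
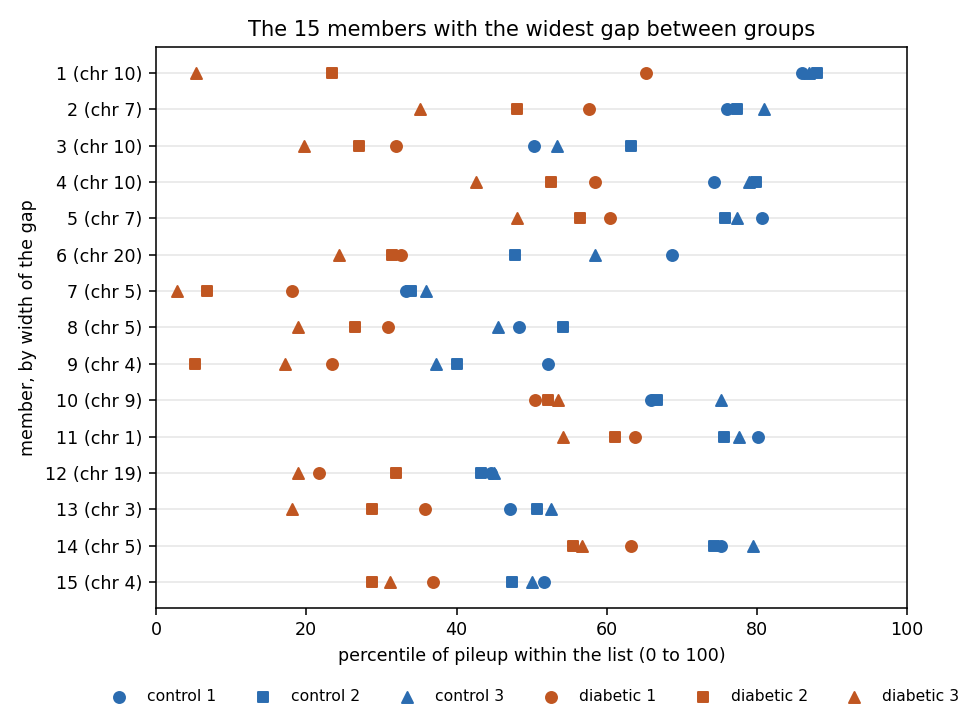
Percentile of pileup (horizontal axis, 0 to 100) of the 15 members with the widest gap, 1 row each with its rank and chromosome; blue marks are the 3 control lists and orange marks the 3 diabetic lists, with a symbol for each replicate number. In every row the blue marks lie right of the orange ones, by 20.9 points in the first row and 10.5 points in the last.

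The regions nearest to members had a lower mean rank in the diabetic lists more often than the nearest neighbours of all eligible regions did, also when neighbours that were members themselves were left out; these are counts, with no test. Of the 283, 136 had another eligible region within 10 kb, and for 26 of these (19.1%) the nearest one was itself a member, beside 5.38% over all 2623 eligible regions with such a neighbour. For 6 (4.41%) the nearest one ranked higher in all diabetic lists, beside 12.4% over all. The rule chose those 26 by their own values, so the level is given over the other 110 neighbours. Their median difference between group means was -1.01 percentile points, with 69 of 110 (62.7%) below 0, whereas over all eligible regions, members among the neighbours included, the neighbour's difference had a median of 1.17 points and was below 0 in 39.5%. Of the 110, those up to 1 kb away had a median of -1.14 points (33 of 47 below 0), and those 1 to 10 kb away had -0.589 points (36 of 63). Neighbours share their libraries, and those on 1 transcript share its abundance, so they are not independent points. Members also stood higher in the control lists than eligible regions did, with a median mean percentile of 77.0 beside 56.6. The difference between their neighbours and those of all eligible regions at equal level was not tested. Regions missing from at least 1 list and within 10 kb of a member numbered 133. Of these, 60 (45.1%) were found in more control than diabetic lists and 46 (34.6%) in more diabetic lists, whereas around all eligible regions the shares were 32.02% and 50.5%.

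When members at most 10 kb apart were joined, 40 of them (14.1%) fell into 18 neighbourhoods, of which 15 held 2 members, 2 held 3 and 1 held 4. In 13 of the 18 every eligible region in the span was a member, and 1 neighbourhood, on chromosome 2 from 93709996 to 93715090, also held a region ranked higher. Each span starts and ends with a member and most held only 2, so nothing is read from the 13. A neighbourhood of 3 members with wide gaps spanned 6066 bases on chromosome 5 from 147607331 to 147613396. Its first member, from 147607331 to 147607954, had percentiles of 75.2, 74.3 and 79.4 in controls and 63.3, 55.5 and 56.7 in diabetic rats. Its second, from 147610654 to 147610921, had 48.4, 54.2 and 45.5 against 30.9, 26.5 and 18.9. Its last, from 147612945 to 147613396, had 33.3, 33.9 and 35.9 against 18.1, 6.78 and 2.81. The level declined from the first region to the last in all 6 lists, and at each the groups stood 11.04 to 15.2 points apart. No other eligible region lay in the span, which held 4 merged regions, 3 of them eligible. The eligible region nearest to the first member lay outside the span, 1484 bases away, and was not a member.

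The largest neighbourhood by number of members, and the 1 Mb window with the most members, was on chromosome 3. The window from 163000001 to 164000000 held 7 members among 15 eligible regions and 1 region ranked higher. The neighbourhood of 4 members spanned 14681 bases, from 163948431 to 163963111, and held 6 eligible regions, in 2 of which the groups overlapped. The narrow first one, of 136 bases and ending at 163948566, had percentiles of 71.2, 82.2 and 70.2 in controls and 34.9, 64.5 and 52.8 in diabetic rats. Another member, from 163954264 to 163954553, had 52.8, 66.7 and 56.6 against 16.6, 32.4 and 43.1. A further member, from 163955031 to 163955527, had 87.6, 89.9 and 88.0 against 77.0, 83.3 and 82.2. The last, from 163962660, had 69.4, 78.1 and 67.1 against 41.4, 62.5 and 49.8. Diabetic replicate 1 was lowest and control replicate 2 highest at each of the 4, and the background of all 4 was at the lowest level in every list. The other 3 members of the window lay over higher input, with backgrounds of 2.77 to 12.0, and had gaps of 0.0585 to 1.17 points. They were found from 163848025 to 163848794, from 163849208 to 163850064 and from 163935082 to 163935708.

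**Figure D4:**
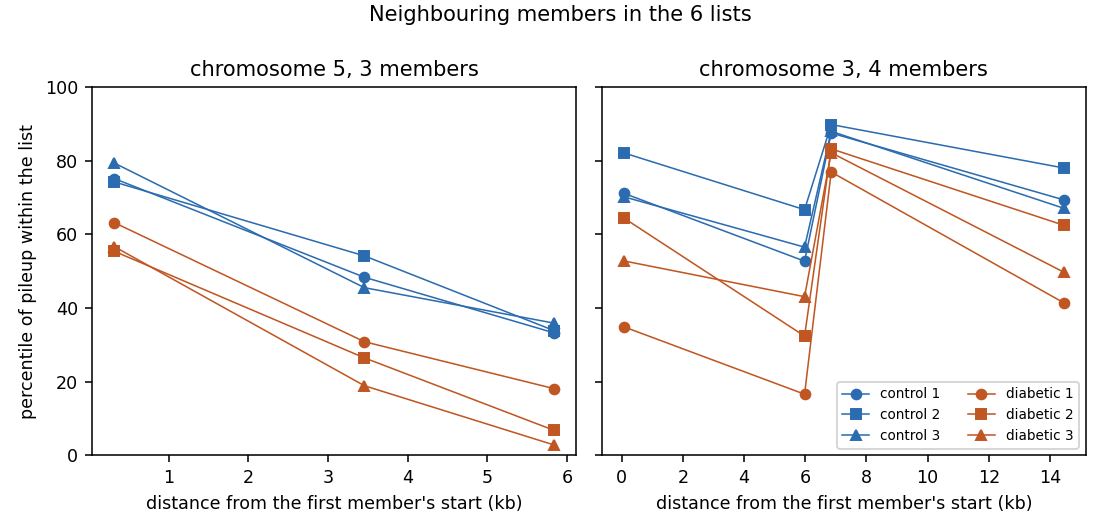
Percentile of pileup (vertical axis) of the neighbouring members on chromosome 5 (left) and chromosome 3 (right), against the distance of their middle from the start of the first one in kb; each line is 1 list, blue for control and orange for diabetic animals. The blue lines lie above the orange ones at each of the 3 and 4 members.

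The input libraries gave a second readout, which did not rank the regions. The background was at the lowest level of its list in all 6 lists for 145 members (51.2%), beside 71.9% of eligible regions, and above it in all 6 for 82 members (29.0%), beside 10.9%. Members thus had input coverage above the lowest level more often than eligible regions did. They made up 3.12% of the 4649 regions at the lowest background in every list, 5.05% of the 1108 regions above it in some lists and 11.6% of the 706 regions above it in all. For the regions ranked higher the shares were 13.7%, 13.9% and 12.2%. The classes also differ in level, which the rule uses: their median mean control percentile was 49.9, 69.7 and 86.7. Percentiles spread less at the top, where the median range over the 6 lists was 6.48 points for eligible regions from the 75th control percentile up and 26.8 points for those below the 25th. The share of members by background at equal level was not tested. Among the 82 members above the lowest level in all lists, the mean background was lower in diabetic than in control animals in 58 (70.7%), and the median ratio of diabetic to control was 0.909. Over all 706 such regions it was lower in 41.9%, with a median ratio of 1.03. In 8 members (2.83%) the background was lower in every diabetic list than in every control list, beside 0.542% of eligible regions (35). In 1 it was higher in every diabetic list, beside 1.16% (75). Regions at the lowest level in all 6 lists, more frequent among eligible regions, cannot be counted either way. Among regions above it in all lists, the background was lower in 7 of 82 members (8.54%), beside 23 of 706 regions (3.26%). It was higher in 1 of the 82 (1.22%), beside 39 of the 706 (5.52%). How far input coverage sets the rank of the members was not tested.

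The member with higher background in the diabetic lists lay on chromosome 7 from 120762036 to 120762961. Its background was 3.71, 4.29 and 5.02 in controls and 6.18, 5.12 and 5.27 in diabetic rats, while its percentiles were 95.03, 91.1 and 89.6 against 86.0, 88.5 and 86.8. Here the IP rank was lower while the background was higher, and the fold enrichments were 6.73, 4.30 and 3.86 against 2.58, 3.27 and 2.95. Its summits with the most coverage lay at 120762565, 120762146 and 120762604 in controls and at 120762355, 120762608 and 120762162 in diabetic rats. The values of different lists thus come from different places in the region. In the adjacent member from 120761193 the backgrounds overlapped, at 4.87, 6.02 and 4.78 against 5.32, 4.66 and 4.03. The 8 members with lower background in every diabetic list included the regions already given on chromosome 10 from 40255789, chromosome 7 from 141366177, chromosome 1 from 214280503 and chromosome 3 from 163848025. They also included one on chromosome 14 from 83945159 to 83945471 and one on chromosome 3 from 72282997 to 72283445. The former had backgrounds of 5.12, 6.40 and 4.97 in controls and 4.85, 4.51 and 4.90 in diabetic rats, and the latter had 2.84, 3.58 and 3.17 against at most 2.83. The remaining members of the 8 had narrower gaps. One, the member on chromosome 3 from 163849208 to 163850064, had backgrounds of 3.83, 4.13 and 4.29 for controls and 3.65, 3.16 and 2.95 for diabetic rats. Its summits with the most coverage lay between 163849583 and 163849719 over the 6 lists, so these values also come from different places in the region. The other, on chromosome 16 from 81153501 to 81154438, had 5.38, 6.65 and 5.70 against 5.14, 3.28 and 4.61.

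**Figure D5:**
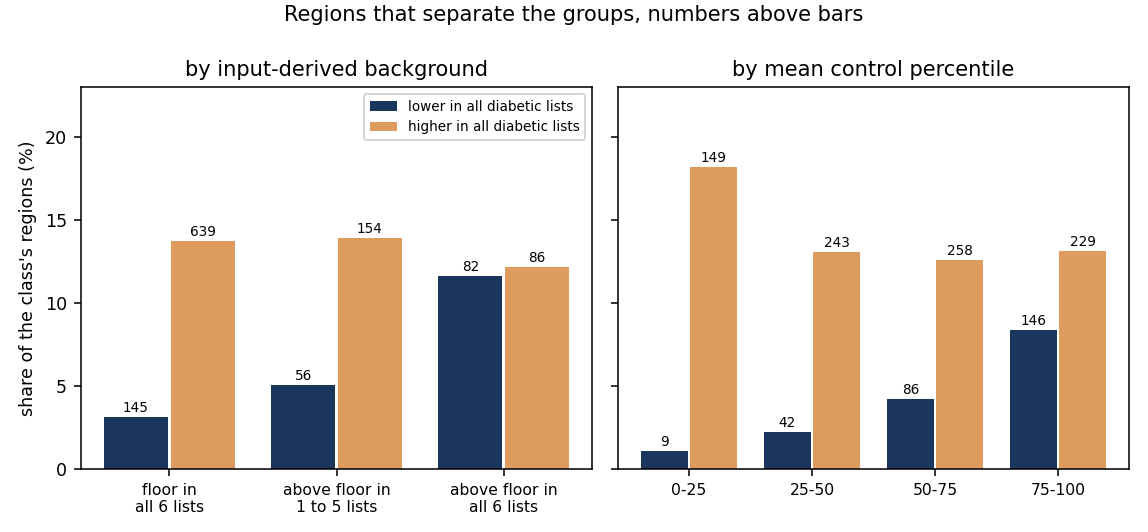
Share of regions (vertical axis, percent of the class) that ranked lower (dark) or higher (light) in all diabetic lists, by the input-derived background (left) and by the mean control percentile of pileup (right), with numbers of regions above the bars. The dark bars go from 3.12% to 11.6% with background and from 1.10% to 8.38% with the control percentile, which the rule itself uses.

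Fold enrichment, which divides by that background, separated fewer of the members. Ranked by fold, 168 of the 283 (59.4%) were lower in all diabetic lists, beside 3.62% of eligible regions; this measure comes from the same comparison as the rule, so nothing is read from the share. Among members at the lowest background in every list, where fold follows pileup, the number was 131 of 145. Among members above it in all lists it was 7 of 82, and 20 of these 82 had a higher mean fold percentile in diabetic rats. The same numbers over all eligible regions of each class were not counted, so nothing is read from these. No member ranked higher by fold in every diabetic list.

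The strongest members stood at the top of every list and were separated by fractions of a percentile point. The highest, on chromosome 10 from 109620483 to 109620951, had percentiles of 99.7 to 99.9 in controls and 99.6 to 99.7 in diabetic rats, with a gap of 0.0601 points, and a background of 27.7 to 51.1 over the 6 lists. The next were chr17:81826401-81827239 (gap 0.113), chr3:177368914-177369374 (0.0769), chr3:7775597-7776239 (0.176), chr16:81153501-81154438 (0.0717) and chr2:235229016-235229521 (0.121). For the last the fold enrichments were 28.4, 20.6 and 32.8 for controls and 25.05, 44.5 and 34.2 for diabetic rats, so fold gave no such order. All 6 had backgrounds above the lowest level in every list. The region on chromosome 16 opens a neighbourhood of 3 members that ends at 81169210.

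In shape the members resembled other shared regions. Their median length was 449 bases (quartiles 302 and 610), beside 410 bases over all eligible regions and 431 for those ranked higher. A single summit in each list was found in 134 members (47.3%), beside 49.3%. The summit with the most coverage stayed within 50 bases over the 6 lists in 226 members (79.9%), beside 76.4%. In 1 member (0.353%) the summits of both groups lay at least 100 bases apart, beside 0.170% of eligible regions. Members were wider than eligible regions in the control lists and about as wide in the diabetic lists. The median width of members was 394, 357 and 422 bases in control lists and 342, 371 and 341 in diabetic lists. For eligible regions it was 313, 310 and 370 in control lists and 345, 371 and 345 in diabetic lists. The median ratio of diabetic to control width was 0.964 for members, beside 1.04 for eligible regions. In 38 members the peak was narrower in every diabetic list (13.4%; 1.39% of eligible regions), and in 1 it was wider in every diabetic list (0.353%; 12.8% of eligible regions). A peak caller draws wider peaks where coverage is higher, so width is not a separate readout. The longest members, on chromosome 4 from 159636334 to 159637328 and on chromosome 9 from 114544080 to 114545043, had gaps of 1.22 and 0.495 points.

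Members were found on chromosomes 1 to 20 and X. Chromosome 1 held 47 of them, 6.73% of its 698 eligible regions, followed by chromosome 10 with 27 (4.93%) and chromosome 3 with 23 (5.02%). The shares on chromosomes 20 (6.21%, 11 members) and 9 (5.91%, 15 members) were also above 4.38%. Chromosome 6 had 5 members among 348 eligible regions (1.44%) and chromosome X had 2 among 122 (1.64%). After the window on chromosome 3, the windows with the most members were chromosome 1 from 101000001 to 102000000, with 5 of 15 eligible regions, and 4 windows with 4 members each. Those were chromosome 10 from 89000001, chromosome 16 from 81000001, chromosome 17 from 20000001 and chromosome 3 from 72000001. The last held 4 members among 10 eligible regions and the window on chromosome 17 held 4 among 6, and no region in either ranked higher in all diabetic lists.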

How the data were processed

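Peak lists of 6 m6A IP libraries of rat retina were used, 3 control and 3 diabetic animals; the 6 input libraries entered as the background of these lists. Named in the submitters' processing notes are BWA 0.7.12 as aligner, MACS2 2.1.0, CASAVA and fastp 0.19.11. Peaks of each animal were called by the authors against its own input, per the file headers, at a q cut-off of 0.05, kept all duplicates and scaled the larger library to the smaller. The pileup is a coverage signal deposited after this scaling. The fold enrichment is a ratio deposited by the authors, with 1 added to pileup and background. The deposited −log10 p and −log10 q have spoiled column headers and were told apart by column order. The caller was told, per the file headers, that the genome spans 61.5 Mb.

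Lines of 1 region were joined, regions ranked (100 × average rank / number of regions) and merged with Python 3.11.15, numpy 2.4.6 and pandas 2.3.3. The background is (pileup + 1) / fold − 1, divided by the lowest of its list and rounded to 2 decimals. That lowest level is a floor shared by many regions, so differences in input below it are not seen. The caller's regional windows for the background were 1 and 10 kb, wider than most regions. Regions named are the 15 members with the widest gap, the 6 highest ranked, those at the thresholds, the 2 longest, those of the fullest window and those separated by background; other neighbourhoods and windows were named after their values were seen. Members, lists and rules were chosen with earlier results of these data known. No test was run, since the rule uses the contrast. The code was tested on simulated data. Alternatives were other rankings, filters, overlaps and length limits, the replicate block and leaving out 1 library. A genome of the build of the lists was not used here. Read numbers limit which weak peaks are called, and no replicate error exists for a single region beyond the 3 values of each group.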

Additional observations from a re-analysis of the deposited data

How the results depend on the processing

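The number of members, 283 as reported, was 642 when ranked among shared regions and 578 with equal list lengths, 170 under 500 bases and 56 with a gap of at least 5 points. Under the replicate block, lower in each same-numbered pair, a looser rule by construction, it was 506. Same-numbered libraries deviated together with correlations of -0.181, -0.0749 and -0.0171 over eligible regions, against -0.0609 to 0.130 for other pairs, so no pairing by number was seen. Leaving out 1 library gave 366 to 742 members, since fewer lists are easier to separate: 615, 742 and 368 without control replicates 1, 2 and 3, and 402, 725 and 366 without diabetic replicates 1, 2 and 3. In the other 9 settings the number was within 1.5 times of 283. The median difference of members was -7.75 points and below 0 in all settings by the rule. It was -9.96 ranked by fold enrichment, -9.33 by −log10 p, -10.1 among shared regions, -9.10 with equal lengths, -9.36 under 500 bases and -17.3 with the 5-point gap, and -9.24 to -6.96 without 1 library. Members with lower input background numbered 8. They were 0 when ranked by fold enrichment, which divides by that background, 4 when ranked by −log10 p, 4 under 500 bases, 3 with the 5-point gap, and 13 to 46 without 1 library. The cause was not tested beyond what each setting does by construction. Of the 283 members, 168 also met the rule ranked by fold enrichment, 201 by −log10 p, and 221 where lists kept folds of 3 or more. Depth limits all of this: enrichment below the call threshold of a list is not seen, and gaps of a fraction of a percentile point are narrower than the spread within a group.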
